A study of Mus musculus with 6 samples.

Results

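In all, 10 genes are described here that mark the epithelial state and that fibroblasts acquire when they pass through the mesenchymal-to-epithelial transition (MET). They are the adhesion genes Cdh1, Epcam and Dsp, the polarity and trafficking genes Crb3 and Rab25, the splicing factor genes Esrp1 and Esrp2, and the transcription factor genes Elf3, Grhl2 and Ovol1. They were chosen by name, and each was read as the row of the count table that carries its symbol. Of the 10 genes, 9 have a row among the 16982 genes of the table, Grhl2 has no row and was taken as 0 by the rule, and 5 passed the filter on low counts (Cdh1, Epcam, Dsp, Esrp2 and Elf3).

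RNA was sequenced from mouse reprogrammable cells at day 3 after infection with retroviruses for the reprogramming factors OSKM (OCT4, SOX2, KLF4, C-MYC), in 3 wild-type (WT1 to WT3) and 3 Rnf20 knockout (KO1 to KO3) libraries, to ask which genes depend on RNF20 early in reprogramming. RNF20 is the E3 ligase that puts a single ubiquitin on histone H2B, a mark found along transcribed genes. The labels give a C57BL/6 background for all 6 libraries, wild type or Rnf20-/- as the genotype, and no treatment for either group. According to the methods, the embryonic fibroblasts (MEF) carried Rnf20 Flox/Flox alleles with loxP sites around some of the exons, and a ubiquitous Tamoxifen-cre deleted them after 3 days of 4-OH tamoxifen. Whether the WT cells carried the same alleles and received the drug is not stated. The infected cells were moved onto growth-arrested MEF feeder layers, whose share of the RNA is not stated. Nothing says whether the libraries of 1 group came from separate embryos or cultures, so the p-values measure only the spread between these libraries. KO2 held Y-linked transcripts and KO1 and KO3 almost none, so KO2 is no technical repeat of either. The counts of KO1 and KO3 differed by a chi-square of 92.4 per gene, against 8.57 for KO1 and KO2, and what separates them was not tested. Whether any of the WT libraries are technical repeats is not known.

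An epithelium is held together by adherens junctions, built on E-cadherin, and by desmosomes, whose plaque protein desmoplakin ties the cell surface to keratin filaments. Fibroblasts lack this architecture, and in OSKM reprogramming the gain of E-cadherin and EpCAM at the cell surface, together with the silencing of Snail and Zeb repressors, is an early step. Transcription factors such as ELF3, GRHL2 and OVOL1 and the RNA-binding proteins ESRP1 and ESRP2, which set the epithelial splice forms of many transcripts, act inside the cell to fix that state. Only day 3 was sampled, so the libraries show the level that each gene had reached there and not its course from the fibroblast.

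Elf3 (ENSMUSG00000003051) and Epcam (ENSMUSG00000045394) were the 2 tested genes whose KO libraries all lay below the WT libraries, and the sequences upstream of their starts are shown for that reason. Each run holds the 250 bases before the annotated RefSeq start in GRCm38.p6, 5′ to 3′ on the strand of the gene, at chr1:135258473-135258722 on the minus strand for Elf3 and chr17:87635729-87635978 on the plus strand for Epcam. Capitals mark 2 motifs, searched on both strands. One is CACCTG, or CAGGTG on the other strand, the E-box that Snail and Zeb proteins can bind. The other is CCACCC, or GGGTGG on the other strand, a core of the sites that KLF proteins can bind.
Elf3: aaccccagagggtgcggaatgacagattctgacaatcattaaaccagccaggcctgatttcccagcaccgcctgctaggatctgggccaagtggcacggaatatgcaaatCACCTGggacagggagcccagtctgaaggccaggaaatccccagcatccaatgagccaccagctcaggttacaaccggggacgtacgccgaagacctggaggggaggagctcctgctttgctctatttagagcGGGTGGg
Epcam: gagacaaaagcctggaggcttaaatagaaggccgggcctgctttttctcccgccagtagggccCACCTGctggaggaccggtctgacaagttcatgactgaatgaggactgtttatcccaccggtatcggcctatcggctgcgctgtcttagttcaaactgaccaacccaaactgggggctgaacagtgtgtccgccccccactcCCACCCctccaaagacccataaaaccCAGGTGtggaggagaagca
The Elf3 run holds 1 E-box, 140 bases before the start, and 1 CCACCC match, 7 bases before it. In GENCODE M21 the Elf3 gene reaches 135258568, beyond the RefSeq start. Part of the run, with the CCACCC match but not the E-box, thus lies inside the gene by that annotation. The Epcam run holds 2 E-boxes, 187 and 19 bases before the start, and 1 CCACCC match at 45 bases. In windows of 300 bases (250 before and 50 after the start), 20.2% of 32851 RefSeq promoters hold the E-box and 31.5% hold CCACCC. Neither run holds AACCNGTT, the grainyhead-like motif, found in 2.09% of the promoters. Promoter sequences were at hand for 5 of the 10 genes (Elf3, Epcam, Rab25, Dsp and Crb3). The Dsp window has 1 E-box, which begins 3 bases after the start, and neither of the other motifs. The Rab25 window has 2 E-boxes, 1 CCACCC match and 1 grainyhead-like motif. Crb3 has 2 windows with 4 E-boxes each, and 1 of these windows also has CCACCC. The motifs are thus not particular to Elf3 and Epcam. These matches describe letters, since no binding or chromatin data are used here.

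The genotype and the libraries were checked first. Rnf20 was at 107, 107 and 106 CPM (counts scaled by TMM-normalized library size) in WT and at 18.7, 18.5 and 16.4 CPM in KO, 16.8% of the WT mean on average, which fits the labels. Totals ran from 20545442 to 21746898 counts, so that 3 counts in a library, taken as the floor, equal 0.142 to 0.143 CPM. This floor covers counting error only. The fibroblast genes Vim, Col1a1, Col1a2 and Col3a1 were abundant in every library (lowest value 1899 CPM, Col3a1 in KO3), as in the MEF from which the cells came. KO3 stood apart: it differed from the other KO libraries by a chi-square of 92.4 and 101 per gene, against 6.04 to 8.92 for every other pair within a group. KO1 and KO3 had almost no Y-linked transcripts (summed CPM of 4 genes 0 and 0.0476), whereas the other 4 libraries had 227 to 266, so this split overlaps in part with the genotype. In bulk RNA fewer cells of a type and less RNA per cell cannot be told apart, which holds for every level below.

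Per length, as RPKM (CPM per kilobase of the deposited gene length), the 10 genes spanned a wide range in WT cells. Dsp was the highest at 5.92 ± 0.22 RPKM (SD, n = 3), followed by Elf3 at 2.37 ± 0.29 and Cdh1 at 2.24 ± 0.02, whose libraries overlapped. Esrp2 at 0.573 ± 0.066 and Epcam at 0.551 ± 0.054 overlapped one another and lay below Cdh1 in every library. Crb3, Rab25, Esrp1 and Ovol1 were between 0.0273 and 0.0919 RPKM on average, near or under the floor, and are not ordered by these data. In KO cells the order of the means was Dsp (6.10 ± 3.44), Cdh1 (1.85 ± 1.33), Esrp2 (0.969 ± 0.283), Elf3 (0.780 ± 0.386) and Epcam (0.257 ± 0.102). Among these neighbours in KO, Elf3 and Epcam did not overlap, and each of the others overlapped the next. Elf3 thus went to a lower place in the order, below Cdh1 and Esrp2, though their KO libraries overlap.

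**Figure D1:**
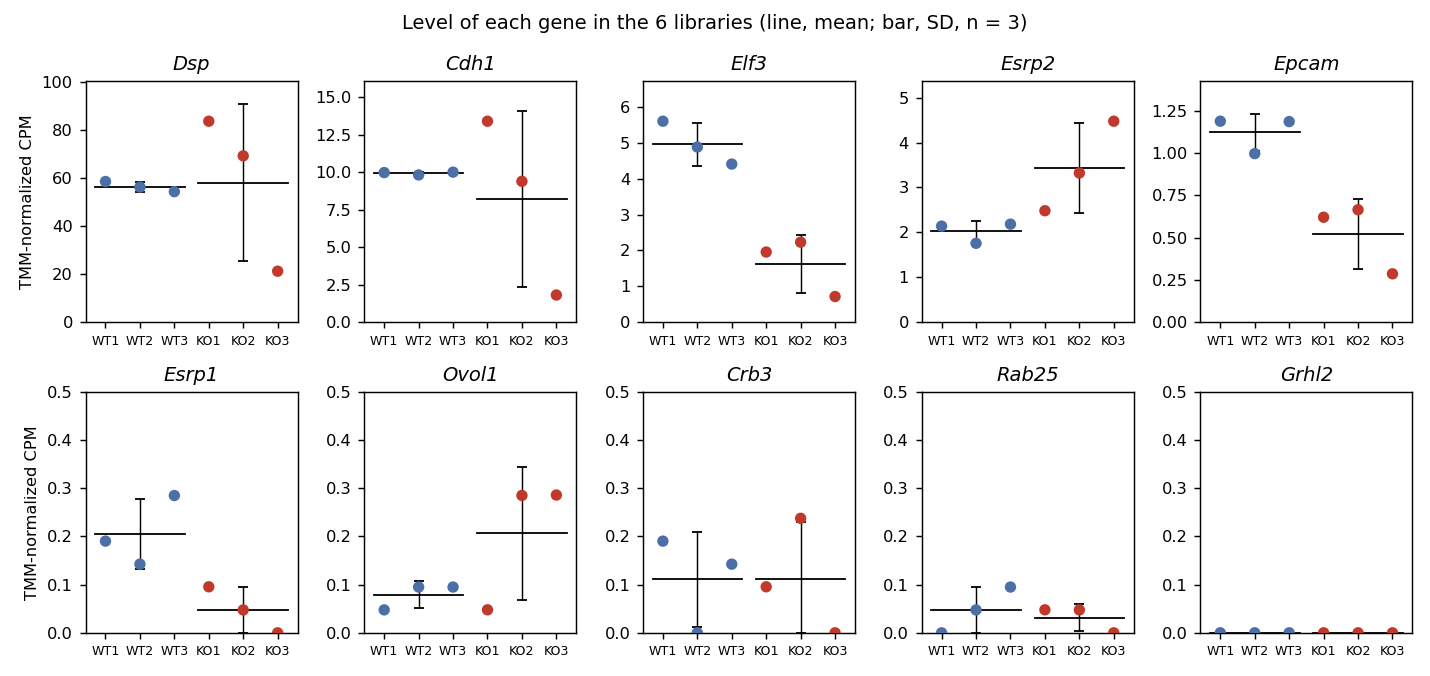
TMM-normalized CPM (vertical axis, linear from 0, scaled for each gene) of the 10 genes in WT (blue) and KO (red) libraries; lines are means and bars SD (n = 3, cut at 0). Elf3 and Epcam lie lower in all 3 KO libraries, Cdh1 and Dsp are low in KO3 alone, Esrp2 is higher in all 3, and the genes of the lower row are under 0.3 CPM throughout.

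The transcription factor gene Elf3 showed the largest log2 fold change of the 5 tested genes. ELF3 is an ETS factor of epithelial cells, and its gene lies on the minus strand of chromosome 1 (135253575 to 135258568, GRCm38). The libraries held 118, 103 and 93 Elf3 counts in WT and 41, 47 and 15 in KO, or 5.61, 4.89 and 4.41 CPM against 1.96, 2.23 and 0.714 CPM. Every KO library lay below every WT library, and KO3 was lower than the other KO libraries. On average KO held 32.9% of the WT level, and the log2 fold change was -1.60 (SE 0.40, adjusted p = 0.0257 by the quasi-likelihood test of edgeR with adjustment over all 13386 tested genes). Elf3 therefore fell at an adjusted p under 0.05 and missed the study's stricter limits, which ask for an adjusted p under 0.01, a fold above 2 and an FPKM over 1. Without KO3 the difference was smaller and more even, at -1.24 (SE 0.23, adjusted p = 0.00143), and within those limits. It lost significance without WT1 (adjusted p = 0.0867), without WT2 (0.0815) or without WT3 (0.0766), and with a term for Y-linked transcripts (log2 fold change -1.15, adjusted p = 0.265). The study had singled out Elf3 as downregulated on these same libraries, so the fall in these counts is not independent evidence.

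The study also measured Elf3 by RT-qPCR in independent experiments, and reports that this assay bore out the lower level seen by sequencing. The primers place that assay on the transcript.
Elf3 forward: aagagagcctaggcgactc
Elf3 reverse: caccggagtcagaagcatg
The forward primer lies in exon 4 (chromosome 1, 135256790 to 135256808) and the reverse primer in exon 6 (135256282 to 135256300) of the transcripts with 9 exons. Of 3 Elf3 transcripts in GENCODE M21, the forward primer matches all and the reverse primer misses 1, a transcript of 3 exons. The counts cover the whole gene, of which 162 of 2217 exonic bases are shared with Gm26642 on the opposite strand. Gm26642 has no row in the counts used here.

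Epcam, which encodes the epithelial cell adhesion molecule, lies on the plus strand of chromosome 17 (87635979 to 87651129). Its counts were 25, 21 and 25 in WT and 13, 14 and 6 in KO, or 1.19, 0.997 and 1.19 CPM against 0.621, 0.665 and 0.286 CPM. The groups did not overlap, and KO3 was again the lowest library. The log2 fold change was -1.09 (SE 0.38) with an adjusted p of 0.0671, which misses the threshold. An edgeR exact test gave an adjusted p of 0.0365. Without KO3 the value was -0.80 (SE 0.38, adjusted p = 0.104). The 6 to 25 counts a library limit how precisely this difference is known.

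Cdh1, which encodes E-cadherin (ENSMUSG00000000303, chromosome 8, 106603351 to 106670246, plus strand), hardly varied among WT libraries. It was at 9.98, 9.83 and 10.01 CPM in WT and at 13.4, 9.40 and 1.81 CPM in KO. KO1 lay above all WT libraries, KO2 just below them, and KO3 far below. The log2 fold change was -0.28 (SE 0.59, adjusted p = 0.740), and without KO3 it was 0.20 (SE 0.15, adjusted p = 0.309). A single library therefore set the sign, and no difference in Cdh1 between the genotypes passed the test in either form.

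Dsp, which encodes desmoplakin (ENSMUSG00000054889, chromosome 13, 38151294 to 38198577, plus strand), followed Cdh1 across the libraries. Its level was 58.7, 56.3 and 54.4 CPM in WT and 83.8, 69.4 and 21.2 CPM in KO. KO1 and KO2 were above every WT library and KO3 below every one. Over all 6 libraries the log2 fold change was 0.042 (SE 0.44, adjusted p = 0.946), and it was -0.017 with library size only in place of TMM. Without KO3 it was 0.44 (SE 0.083, adjusted p = 0.00160), a difference that passed the test upward. Of the 9659 exonic bases of Dsp, 499 are shared with Gm10129 on the opposite strand, which has no row in the counts used here.

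**Figure D2:**
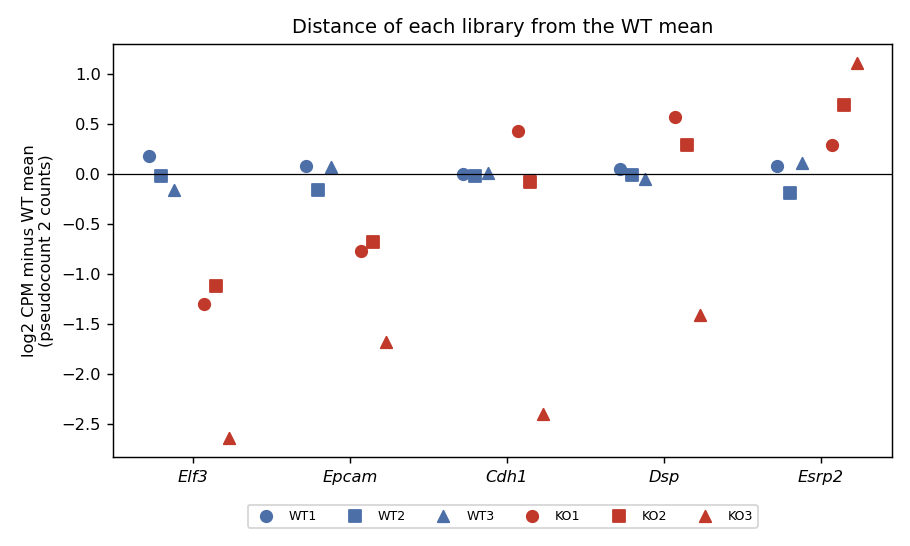
Difference between the log2 CPM of each library and the WT mean (vertical axis, pseudocount of 2 counts) for the 5 tested genes; blue symbols are WT, red KO, and the shape gives the replicate number. KO3 (red triangles) is the farthest from 0 for all 5 genes, at -2.64 for Elf3, -1.67 for Epcam, -2.40 for Cdh1, -1.41 for Dsp and 1.11 for Esrp2.

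Measured against the WT mean on the log2 scale, KO1 and KO2 were at -1.30 and -1.12 for Elf3 and at -0.76 and -0.68 for Epcam. They were at 0.43 and -0.080 for Cdh1 and at 0.57 and 0.30 for Dsp. In KO1 and KO2, then, Elf3 and Epcam lay below all WT libraries while Dsp lay above them and Cdh1 on both sides, and in KO3 all 4 lay below. Over the 6 libraries Pearson's r of log2 CPM was 0.988 for Elf3 with Epcam and 0.972 for Cdh1 with Dsp, against 0.603 to 0.778 for the pairs across these couples. These correlations describe 6 libraries of 2 groups in which 1 library stands apart. The tested genes most like Dsp by the same measure were Itpr1 (r = 0.9991), Cpne1 (0.997), Dhx8 (0.9962), Shc3 (0.9932) and Sipa1l3 (0.9921). In all, 207 genes had an r over 0.95 with Dsp.

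Esrp2 was the tested gene that ran the other way. ESRP2 is an RNA-binding protein that directs epithelial splicing, and its gene (ENSMUSG00000084128) lies on the minus strand of chromosome 8, from 106130319 to 106136974. Its level was 2.14, 1.76 and 2.18 CPM in WT and 2.48, 3.32 and 4.48 CPM in KO. All KO libraries lay above all WT libraries, with KO1 closest to WT and KO3 the highest. The log2 fold change was 0.76 (SE 0.28, adjusted p = 0.0801), and it was 0.52 (adjusted p = 0.138) without KO3. It passed the threshold without KO1 (0.95, adjusted p = 0.0494). Of 4340 exonic bases of Esrp2, 219 overlap exons of Nfatc3 on the opposite strand, and the use of strand in the counting is not stated. Nfatc3, at 123 to 128 CPM in WT and 122 to 141 CPM in KO, had a log2 fold change of 0.090 (SE 0.077, adjusted p = 0.396).

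Esrp1, the close relative of Esrp2 (chromosome 4, 11331933 to 11386783, minus strand), had 4, 3 and 6 counts in WT and 2, 1 and 0 in KO. The groups do not overlap, with 13 counts against 3 in all, and an exact permutation test of the CPM gave p = 0.1 (two-sided), the smallest p that 3 against 3 libraries allow. This test could not have passed a threshold of 0.05.

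The transcription factor gene Ovol1, which encodes a zinc finger repressor of mesenchymal genes (chromosome 19, 5549136 to 5560646, minus strand), had 1, 2 and 2 counts in WT and 1, 6 and 6 in KO. The exact permutation test gave p = 0.3 for 5 counts against 13. Its exons share 690 of 3488 bases with the pseudogene Gm31166 on the opposite strand. Grhl2, which encodes a grainyhead-like activator of Cdh1 and other junction genes (chromosome 15, 37233036 to 37363569, plus strand), has no row, while every listed gene has at least 1 count in some library.

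Rab25, which encodes a small GTPase of the apical recycling endosome (chromosome 3, 88542029 to 88548300, minus strand), had 0, 1 and 2 counts in WT and 1, 1 and 0 in KO. Crb3, which encodes the Crumbs protein that sets the apical surface (chromosome 17, 57059105 to 57065918, plus strand), had 4, 0 and 3 counts in WT and 2, 5 and 0 in KO. Both gave p = 1 in the exact permutation test. A difference in either gene was not detectable at this depth. In an edgeR fit without a filter over all 16982 genes, the adjusted p was 0.166 for Esrp1, 0.307 for Ovol1, 0.798 for Rab25 and 0.999 for Crb3.

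Of the 5 genes tested, then, 3 had a negative and 2 a positive log2 fold change by edgeR. Of the 5, 1 (Elf3) fell at an adjusted p under 0.05, where 16.6% of all tested genes fell. None rose, by edgeR's quasi-likelihood test, its exact test or DESeq2, where 16.4% of all tested genes did by the first. Under the study's limits none was called lower and none higher by the quasi-likelihood test of edgeR, beside 2.08% and 1.50% of all tested genes. At an unadjusted p under 0.05, 2 of the 5 were lower (Elf3, Epcam) and 1 was higher (Esrp2), where 23.0% of all tested genes were lower and 22.5% higher. DESeq2 and the exact test of edgeR each called 1 of the 5 lower, and none higher. Of all 13386 tested genes they called 565 and 566 lower, against 279 by the quasi-likelihood test. In 2 of the 5 the KO libraries were all below the WT libraries (28.2% of all tested genes), and in 1 they were all above (26.6%). The median log2 fold change of the 5 was -0.28, beside -0.00032 for all tested genes, and it was 0.20 without KO3. The summed CPM of the genes was 72.8 to 78.0 in WT and 103, 85.6 and 28.8 in KO1 to KO3, most of it from Dsp. With library size only in place of TMM, the genes past an adjusted p of 0.05 numbered 2684 lower and 1750 higher in KO, against 2218 and 2195.

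**Figure D3:**
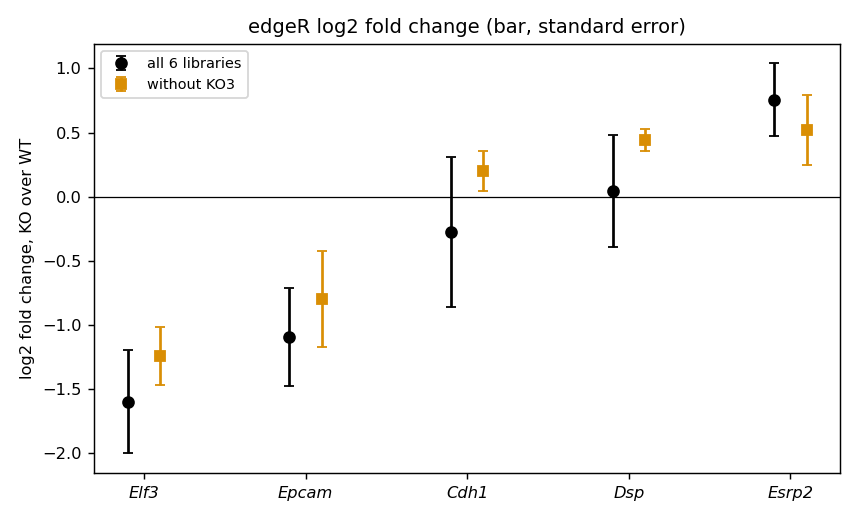
Log2 fold change of KO over WT by edgeR (vertical axis) with its standard error for the 5 tested genes, from all 6 libraries (black circles) and without KO3 (orange squares). Elf3 stays below -1.2 in both, Cdh1 changes sign from -0.28 to 0.20, and Dsp moves from 0.042 to 0.44 with a much smaller error.

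Markers of other cell types moved among the KO libraries too. The summed CPM of 8 macrophage genes was 44.8 to 91.9 in WT, 76.1 in KO1, 46.8 in KO2 and 237 in KO3, the library in which Cdh1 and Dsp were low, and 0 of the 8 passed the quasi-likelihood test of edgeR in either direction (1 was higher at an unadjusted p under 0.05, and 1 by DESeq2 and 1 by the exact test). The 8 mesothelial genes summed to 76.0 to 86.2 CPM in WT and to 183, 136 and 122 CPM in KO1 to KO3, mostly through Msln and Krt19, and the order KO1, KO2, KO3 is that of Dsp and Cdh1. The other 6 summed to 19.9 to 21.8 CPM in WT and to 25.4, 10.6 and 8.14 CPM in KO1 to KO3, so they were below WT in KO2 and KO3. Of the 8, 2 rose (Msln, Krt19), 1 fell (Cldn15), and the median log2 fold change was -0.17. Of 8 keratinocyte genes, 2 were up (Krt15, Sfn) and 0 down, though Krt15 passed the filter only through its KO libraries, where it was higher. The 8 genes summed to 51.9 to 54.0 CPM in WT and 61.3 to 69.2 CPM in KO. Most of that sum is Sfn, at 48.4, 53.8 and 63.7 CPM in KO1 to KO3. The other 7 genes summed to 10.02 to 11.6 CPM in WT and to 12.9, 10.4 and 5.48 CPM in KO1 to KO3. Much of this was Krt14, at 7.73, 5.08 and 1.67 CPM in KO1 to KO3. Among the KO libraries Sfn was highest in KO3, and Krt14, Krt5 and Col17a1 were lowest there. Krt10 (25, 22 and 26 counts in KO1 to KO3) and Krt15 (11, 12 and 14) hardly differed, so the list did not move as a whole. All 8 genes of each list had a row. The part of these cells in the levels of the 10 genes was not tested.

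**Figure D4:**
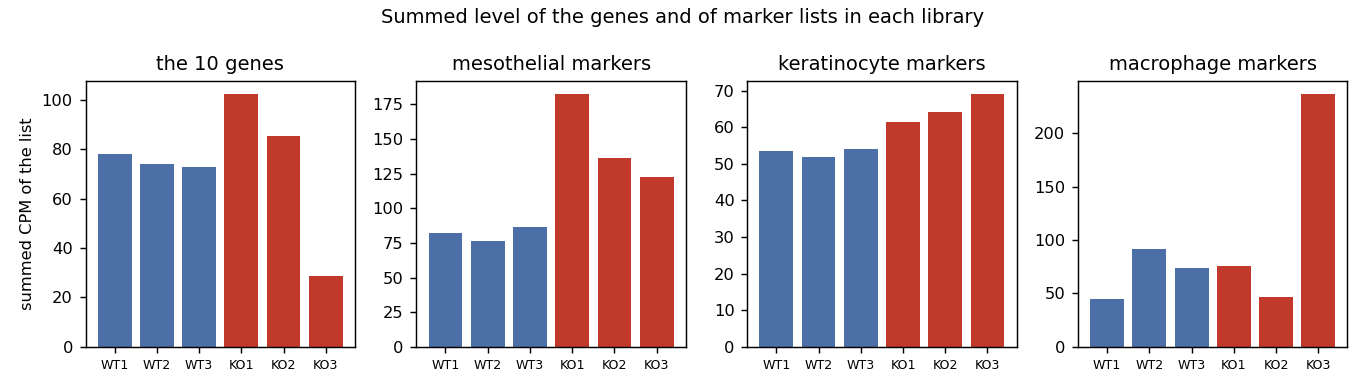
Summed TMM-normalized CPM (vertical axis, linear from 0) of the 10 genes and of the mesothelial, keratinocyte and macrophage marker lists in each WT (blue) and KO (red) library. The sum of the 10 genes is 28.8 in KO3, where the macrophage sum reaches 237, and the mesothelial sum, most of it Msln and Krt19, is above WT in all 3 KO libraries. Most of the keratinocyte sum is Sfn, and most of the macrophage sum is Lyz2.

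The partners of these genes were read from lists chosen by function. Of all tested genes 16.6% fell and 16.4% rose, and without KO3 24.2% fell and 23.9% rose, the shares against which each count stands. Leaving out 1 WT library left 702 to 994 genes lower and 694 to 953 higher, against 2218 and 2195. Of 16 desmosome genes 11 were tested, with Dsp among them. Of these, 4 rose and none fell at an adjusted p under 0.05: Ppl (log2 fold change 1.53, adjusted p = 0.00198), which encodes periplakin of the plaque, Perp (1.42, 0.00153), a membrane protein of desmosomes, Dsc2 (1.12, 0.0103), a desmosomal cadherin, and Pkp2 (1.03, 0.0159), a plakophilin. Dsp differed from them in that its rise needed the removal of KO3, whereas the KO libraries of these 4 genes were all above WT. Jup, the plakoglobin gene and the most abundant of the list per length, had a log2 fold change of -0.034. The median of the 11 was 0.042, the value of Dsp itself. Of the 11, 1 was lower at an unadjusted p under 0.05 and 1 fell by DESeq2. Without KO3, 5 rose, Dsp among them, and 2 fell (Pkp1 and Pkp4).

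Of 9 tested partners of E-cadherin in the adherens junction, 3 rose and none fell (1 at an unadjusted p under 0.05): Ctnna1 (alpha-catenin, 0.42, adjusted p = 0.0213), Nectin1 (a nectin, 0.41, adjusted p = 0.0182) and Ctnnd1 (p120-catenin, 0.37, adjusted p = 0.0159). Ctnnb1, the beta-catenin gene, had a log2 fold change of 0.16 (adjusted p = 0.304). Without KO3, 6 rose and 1 fell. Of 8 tested repressors of Cdh1, Tcf4 fell (-0.63, adjusted p = 0.0114), and Snai1, Snai2, Zeb1, Zeb2 and Twist1 had overlapping libraries, none past the test over all 6 libraries, with log2 fold changes between -0.085 and 0.20. Without KO3, Zeb1 rose (0.29, adjusted p = 0.00246) and 1 of the 8 fell. Prrx1 and Twist1, the most abundant of the list per length, were at 0.047 and 0.016.

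Of 18 epithelial transcription factor genes 9 were tested, with a median of -0.38. Elf3 fell the most, ahead of Tfap2a (-1.03, adjusted p = 0.0236), an AP-2 factor of surface ectoderm, and Grhl1 (-0.92, adjusted p = 0.0366), a relative of Grhl2. Foxa1, a pioneer factor of endoderm, rose from 1 count over all WT libraries to between 11 and 15 counts in each KO library (adjusted p = 0.00681). Foxa1 passed the filter only through its KO libraries, the group where it was higher, so this test is not independent of the rise. Klf5 and Grhl3, the most abundant per length, had log2 fold changes of -0.27 (adjusted p = 0.193) and -0.38 (adjusted p = 0.496). Without KO3, 2 of the 9 fell and 2 rose.

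Among 15 tested genes of the polarity complexes, to which Crb3 belongs, 2 fell and 3 rose, shares near those of all tested genes. Pard6b (-0.88, adjusted p = 0.0200) and Llgl1 (-0.77, adjusted p = 0.00500) fell, and Llgl2 (0.94, adjusted p = 0.00986), Mpp5 (0.49, adjusted p = 0.0316), which encodes the Crumbs partner PALS1, and Dlg1 (0.34, adjusted p = 0.0208) rose. Prkci, as abundant as Dlg1 per length, had a log2 fold change of -0.050. The lethal giant larvae genes Llgl1 and Llgl2 thus moved in opposite directions. In the Rab11 family, to which Rab25 belongs, 11 of 12 were tested: Rab11fip2 fell (-0.68, adjusted p = 0.00871), and Rab11fip5 (0.80, adjusted p = 0.00758), Rab11a (0.50, adjusted p = 0.0178) and the motor gene Myo5a (0.48, adjusted p = 0.00591) rose.

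For the splicing genes, 11 of 12 regulators were tested, of which Srsf1 fell (-0.35, adjusted p = 0.0345) and Rbm47 (0.997, adjusted p = 0.0469), Mbnl2 (0.58, adjusted p = 0.00324) and Mbnl1 (0.38, adjusted p = 0.0245) rose. Ptbp1, the most abundant per length, was at -0.18 (adjusted p = 0.290). Rbm47 acts with ESRP proteins on epithelial exons and was at 0.475 to 0.665 CPM in WT and 0.9496 to 1.29 CPM in KO, above WT in all libraries as Esrp2 was. Of 7 tested genes whose transcripts ESRP proteins splice, Magi1 fell (-0.72, adjusted p = 0.0112) and Cd44 (1.18, adjusted p = 0.0196), Enah (0.53, adjusted p = 0.0356) and Ctnnd1 rose. Counts per gene do not show which splice form was made, so the work of Esrp1 and Esrp2 was not measured.

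Of 23 other epithelial surface and junction genes 13 were tested. Cldn3, a claudin of tight junctions, fell from 2.56 to 3.19 CPM in WT to 0.429 to 0.859 CPM in KO (-2.16, adjusted p = 0.00614), and Cdh3, the P-cadherin gene, fell by 1.22 on the log2 scale (adjusted p = 0.0244). Like Elf3, Cdh3 was singled out by the study on these libraries. The study also measured Cdh3 by RT-qPCR, and reports that this assay bore out its lower level. Krt19 (1.14, adjusted p = 0.0274), St14 (0.79, adjusted p = 0.0284) and F11r (0.43, adjusted p = 0.0265) rose. Krt8, a keratin of simple epithelia, was at 28.4 to 30.3 CPM in WT and at 18.1, 12.4 and 0.714 CPM in KO (-1.50, adjusted p = 0.189), with KO3 the lowest as for Elf3 and Epcam. Without KO3, Krt8 fell (-0.95, adjusted p = 0.000347), as did its partner keratin Krt18 (-0.94, adjusted p = 0.0465), and the list held 4 lower and 4 higher genes. Leaving out a WT library left 1 lower and 0 higher.

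**Figure D5:**
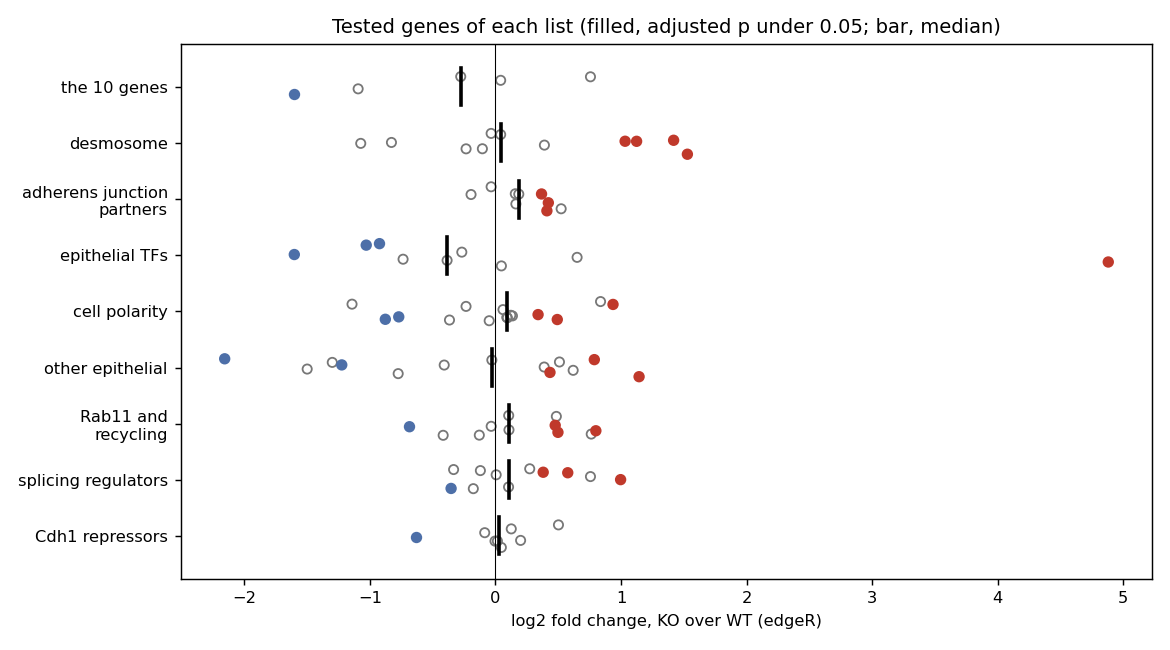
Log2 fold change of KO over WT by edgeR (horizontal axis) of the tested genes in each list (rows), filled blue or red where the adjusted p is under 0.05, open otherwise, with the median as a bar. The 10 genes, of which 5 were tested, and the epithelial transcription factors have medians of -0.28 and -0.38; Elf3 at -1.60 is the filled point of the top row.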

How the data were processed

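RNA-seq of 3 WT and 3 Rnf20 knockout libraries from day 3 of reprogramming was analysed. Per the methods and the submitters' processing notes, paired-end reads of TruSeq stranded mRNA libraries were aligned to GRCm38/mm10 with HISAT2 2.1.0. The authors deposited raw counts per gene, with gene lengths in bases. The counting program and its use of strand are not given in the sources used here. The authors also deposited FPKM values from Cufflinks 2.1.1 for 12633 genes, beside copies of the counts in 6 columns and the log2 fold changes and FDR of their own comparison, neither of which was used. FPKM entered only the limit on called genes.

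From the counts, TMM factors and the filter filterByExpr (13386 genes kept) were applied in edgeR 4.0.16 under R 4.3.3, and KO was compared with WT by the quasi-likelihood test without covariates, with Benjamini-Hochberg adjustment over all tested genes. SE is the size of the log2 fold change over the root of F. Calls needed all limits of the study: adjusted p below 0.01, log2 fold change beyond 1 in size, and FPKM above 1, taken as the mean of either group. Genes under the filter were compared by the exact permutation test, two-sided. Positions and overlaps came from GENCODE M21, promoters from RefSeq. Total counts were 20545442 to 21746898 per library. PCR duplicates cannot be told apart, so the floor of 3 counts covers counting error only. The fits were tested on simulated data.

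The 10 genes and all lists were chosen with earlier results of these data known. Named from each list are the genes at an adjusted p under 0.05, up to 4 per direction by absolute log2 fold change, and the 2 most abundant by RPKM. The genes most like Dsp were ranked by Pearson's r of log2 CPM. Nfatc3, Krt5, Krt8, Krt10, Krt18, Col17a1, Adgre1, Pecam1, Vwf, Cdh5, Emcn, Fn1, Cdh11 and the Snail and Zeb genes were named after their values were seen. Also tried were library size only, RLE size factors, other filters, the exact test of edgeR, DESeq2 1.42.0, an adjusted p of 0.05, a replicate block, a term for Y-linked transcripts and each library left out.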

Additional observations from a re-analysis of the deposited data

How the results depend on the processing

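The direction of Elf3, Epcam and Esrp2 held in all 14 alternatives, with log2 fold changes of -1.89 to -1.15 for Elf3 (adjusted p from 0.00113 to 0.265, under 0.05 in 10 of 14), -1.30 to -0.75 for Epcam (0.0365 to 0.448) and 0.52 to 0.95 for Esrp2 (0.0494 to 0.341). Cdh1 reversed without KO3, at 0.20, and ranged from -0.82 to 0.20 on leaving out 1 library. Dsp, at 0.44 without KO3, reversed with library size only (-0.017), with the replicate block (-0.15), without KO1 (-0.32) and without KO2 (-0.10). The cause was not tested. The median of the 5 tested genes reversed without KO3, at 0.20, with a range of -0.82 to 0.20 over the libraries left out. The number of the 5 called lower was 0 and became 1 with DESeq2, 1 with the exact test of edgeR, 1 with an adjusted p under 0.05 beside the other limits, and 0 to 1 on leaving out 1 library (1 without KO3). The number lower at an adjusted p under 0.05 was 1 and became 2 with the exact test, 0 with the term for Y-linked transcripts (also 0 at an unadjusted p under 0.05) and 0 to 1 on leaving out 1 library (0 without WT1, WT2 or WT3). The number higher was 0 and became 1 without KO1 (Esrp2) or without KO3 (Dsp), a range of 0 to 1.

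Of all tested genes, 279 were called lower, and 565 with DESeq2, 566 with the exact test, 586 at an adjusted p under 0.05, 0 with the term for Y-linked transcripts and 1 to 491 on leaving out 1 library (1 without each WT library, 49 without KO1, 30 without KO2 and 491 without KO3). Deviations from the group means hardly correlated between libraries with the same number (r = -0.0656, 0.0366 and 0.0109). With 3 libraries a group and KO3 standing apart, these values cannot show whether such libraries share an embryo or a culture. With the replicate block 0 genes were called lower by edgeR, although 2858 were lower at an unadjusted p under 0.05 and 1490 at an adjusted p under 0.05 (29 with the Y-linked term, 1613 unadjusted). Depth limits Esrp1, Ovol1, Rab25, Crb3 and Grhl2, of which no library holds more than 6 counts.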

Other observations

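Of 12 fibroblast genes, all tested, 3 fell and 1 rose by the quasi-likelihood test of edgeR, and 3 rose by DESeq2. Without KO3, 3 fell and 4 rose, with Fn1 (0.74, adjusted p = 0.000212), Cdh11 (0.40, adjusted p = 0.00148) and Vim (0.28, adjusted p = 0.0115) beside Cdh2. Fap (log2 fold change -1.22, adjusted p = 0.00374), a protease of activated fibroblasts, Pdgfra (-1.22, adjusted p = 0.0185), a growth factor receptor, and Thy1 (-1.11, adjusted p = 0.00251), a surface glycoprotein, fell, and Cdh2, which encodes N-cadherin, rose (0.63, adjusted p = 0.00394). N-cadherin is the cadherin of mesenchymal cells, and its level of 94.6 to 110 CPM in WT and 153 to 163 CPM in KO did not overlap, with KO3 among the others. The most abundant fibroblast genes per length, Col1a1 and Vim, had log2 fold changes of 0.018 (adjusted p = 0.954) and 0.29 (adjusted p = 0.0577).

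Of 9 endogenous pluripotency genes 1 was tested, Nanog, at 0.903, 2.23 and 0.902 CPM in WT and 0.811, 0.617 and 0.286 CPM in KO (log2 fold change -1.23, adjusted p = 0.125), and the list summed to 1.33 to 2.52 CPM in WT and 0.572 to 1.19 CPM in KO. Of 7 endothelial genes 2 were tested, Tek and Kdr, and neither passed the test by edgeR (0 at an unadjusted p under 0.05). Under the filter, Pecam1 had 2, 1 and 0 counts in WT and 11, 10 and 11 in KO. Vwf had 5, 4 and 4 in WT and 8, 16 and 28 in KO. Both were without overlap. The share of 26.6% in that direction covers tested genes only, and so leaves out genes under the filter such as these. Cdh5 had 5, 1 and 0 counts in WT and 1, 5 and 3 in KO, and Emcn had 0, 0 and 0 against 1, 0 and 0. Tek, the most abundant per length, had a log2 fold change of -0.095. The list summed to 48.8 to 59.1 CPM in WT and to 67.6, 54.7 and 33.6 CPM in KO1 to KO3. Most of that is Tek, so the sum says little of the other genes. In the fit without a filter the median log2 fold change of the 7 was 1.145, beside 0.0532 for all genes. Most of the 7 had few counts. Without a filter, 1 endothelial gene rose, and 1 rose without WT1, WT3, KO1 or KO2, where 3 or 4 of the list were tested. The most abundant keratinocyte gene per length was Sfn (0.38, adjusted p = 0.0366), ahead of Krt14 (-0.47, adjusted p = 0.496). Of the macrophage genes Lyz2 (0.85, adjusted p = 0.343) and Cd68 (-0.23, adjusted p = 0.450) were the most abundant. Adgre1, a macrophage surface gene, was at 31.9 CPM in KO3 and at 1.76 to 4.27 CPM in the other libraries.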
